A study of Mus musculus with 4 samples.

Results

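This report describes peaks of the transcription factor FoxP3 that were called with GATA1 present but not without it. They lay beside RNA polymerase II (Pol II) without sharing a base with it, as judged from 3 peak lists from mouse T cells. There were 1053 such peaks among the 9011 of the FoxP3+GATA1 list, or 11.7%. They were chosen by position. Each shared no base with any of the 5069 peaks of the FoxP3 alone list or the 17632 peaks of the Pol II list, and the gap from its edge to the nearest Pol II peak edge was 20 kb or less. They are called near sites here. The 2838 peaks found only with GATA1 that lay farther from Pol II are called far sites. Only with GATA1 means that no overlapping peak was called in the FoxP3 alone list. It does not show that FoxP3 was absent there.

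The study asked how a cofactor affects where FoxP3 lies in the genome. The cells were primary CD4+ conventional T cells from lymph nodes of C57BL/6 mice aged 6 to 8 weeks, activated with beads carrying anti-CD3 and anti-CD28 in medium with 20 U/ml recombinant human IL-2. One culture carried FLAG-FoxP3 + GATA1 and another FLAG-FoxP3, and FoxP3 was precipitated from both with the anti-FLAG antibody M2. Pol II was precipitated with the antibody N20 from cells whose title and factor label give FLAG-FoxP3 + GATA1, while their description mentions activated CD4 cells only. The whole cell extract, from cells labelled as having no factor, was the sequencing control. The sources used here do not name the promoter that drives the factors, nor do they say whether mice were pooled. Each group had 1 library, so nothing below has a test across samples. The files give no read counts, so the depth is unknown. The samples include no FLAG precipitation of cells lacking the tagged protein, so non-specific peaks and FoxP3 sites cannot be told apart. The lists name no genes, and the labelled cell type was not checked.

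FoxP3 is a forkhead transcription factor that defines regulatory T cells and both represses and activates genes. Here conventional CD4+ T cells carried it in a FLAG-tagged form. GATA1 is a zinc-finger factor that drives red blood cell and megakaryocyte development. Its relative GATA3 is the family member known for its role in T cells. Pol II is the enzyme that transcribes protein-coding genes and gathers at active start sites. Regulatory elements such as enhancers often lie some distance from the start site they act on, which is the setting in which peaks beside Pol II are of interest.

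Near sites lay at all distances up to the limit. The median gap to the nearest Pol II peak was 8567 bp (95% interval 8190 to 9018, quartiles 3589 and 13586). Within 1 kb of Pol II lay 80 of the 1053, and within 5 kb lay 347, or 33.0%. Another 264 lay between 5 and 10 kb, 251 between 10 and 15 kb and 191 between 15 and 20 kb. These gaps were used in choosing the sites, so they carry no test. Intervals here and below are 95% intervals that cover counting error over peaks only, not variation between cultures.

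The 5 near sites closest to Pol II almost touched it. The peak at 126991432 to 126992113 on chromosome 4 (score 134.3) had a gap of 0 bp, which means that it ended where the Pol II peak began or the reverse. The peak at 139155409 to 139156062 on the same chromosome (score 133.9) was 8 bp away. The peak at 87861243 to 87862413 on chromosome 11 (score 412.8) was 10 bp away, the one at 103166202 to 103166794 on chromosome 3 (score 124.0) was 28 bp away and the one at 87650439 to 87650822 on chromosome 8 (score 211.9) was 41 bp away. At the other end, the last 3 inside the limit had gaps of 19774, 19936 and 19945 bp and scores of 140.8, 160.2 and 285.6. The first 3 outside it had gaps of 20013, 20036 and 20085 bp and scores of 169.2, 147.0 and 117.2.

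How densely these sites were spaced was measured as peaks per Mb of sequence in rings of increasing distance around all Pol II peaks, with each peak placed by its centre. Sites only with GATA1 and off Pol II numbered 2.09 per Mb (1.81 to 2.42) between 2 and 5 kb, 2.00 (1.77 to 2.26) between 5 and 10 kb and 2.05 (1.86 to 2.25) between 10 and 20 kb. The density was therefore even over most of the 20 kb window. Past the limit it was 1.85 per Mb (1.73 to 1.98) between 20 and 50 kb and 1.74 (1.62 to 1.88) between 50 and 100 kb, and it was lowest beyond 500 kb, at 0.688 (0.593 to 0.793). From 2 to 20 kb the density was 1.10 times that from 20 to 50 kb (1.002 to 1.21) and 1.62 times that beyond 50 kb (1.498 to 1.755). The intervals of the rings on either side of the limit, 10 to 20 kb and 20 to 50 kb, overlapped. The near sites thus passed into the far sites with a slow decline, and no step at the limit was shown.

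**Figure D1:**
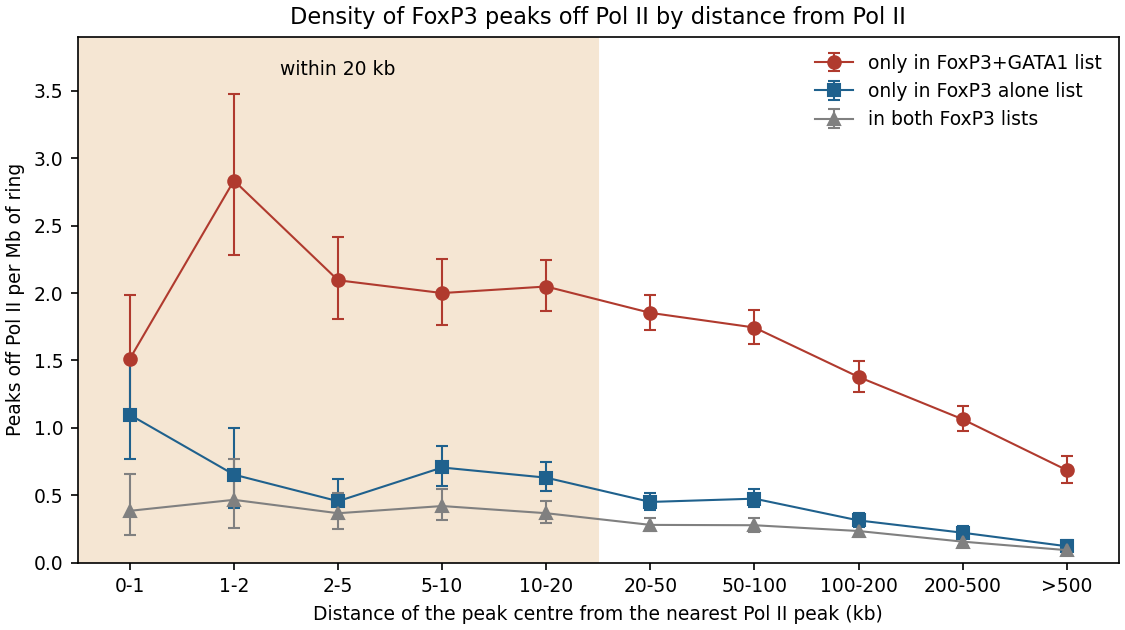
Density of FoxP3 peaks that share no base with a Pol II peak (peaks per Mb of sequence, vertical axis) in rings of distance from the nearest Pol II peak (kb, horizontal axis, unequal steps), with 95% Poisson intervals as bars. The shaded rings are within 20 kb; sites only with GATA1 stay near 2 per Mb from 2 to 20 kb and decline to 0.688 beyond 500 kb, and both other sets are sparser in each ring.

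The highest value was in a single ring. Between 1 and 2 kb from Pol II there were 91 sites only with GATA1, or 2.83 per Mb (2.28 to 3.48), whose interval overlapped that of the 2 to 5 kb ring but lay above those of the 5 to 10 and 10 to 20 kb rings. In the first 1 kb the density was 1.51 per Mb (1.13 to 1.99). That ring is partly emptied by the rule, since a peak centred there often overlaps Pol II and is then not counted.

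The same spacing was measured for FoxP3 peaks off Pol II that were found only without GATA1, and for those in both FoxP3 lists. Their densities from 2 to 20 kb were 0.619 per Mb (0.548 to 0.696) and 0.384 per Mb (0.328 to 0.446). They were 1.37 times (1.14 to 1.65) and 1.36 times (1.08 to 1.73) as high there as from 20 to 50 kb. These ratios were larger than the 1.10 of the sites only with GATA1, but the intervals overlapped.

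Off-Pol II sites only with GATA1 had a smaller share near Pol II than those found only with FoxP3 alone. Per Mb from 2 to 20 kb from Pol II they were still the denser set, at 2.04 against 0.619. Of the 3891 sites only with GATA1 and off Pol II, 1053 were near sites, or 27.1% (25.7 to 28.5). Of the 1007 off-Pol II sites found only with FoxP3 alone, 334 lay within 20 kb of Pol II, or 33.2% (30.3 to 36.1). The share among sites only with GATA1 was lower by a difference of -6.11 percentage points (-9.37 to -2.93). Of the 642 off-Pol II sites in both FoxP3 lists, 202 were within 20 kb, or 31.5% (27.99 to 35.16), a difference of -4.40 points (-8.34 to -0.651). The lists differ in length, and with the FoxP3+GATA1 list reduced to its 5069 highest-scoring peaks the first difference was -11.6 points (-15.0 to -8.35). This shortening dropped the weakest peaks, among which near sites were more common. Near sites were 37.5% of off-Pol II sites only with GATA1 in score decile 1 (lowest), against 25.2% in decile 10 (highest). The reduced list therefore cannot separate list length from score, and the effect of length by itself was not tested. By its label the Pol II culture had received both factors, like 1 of the FoxP3 cultures and unlike the other. The distance to Pol II also chose the near sites, so these shares are descriptions.

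Near sites were among the weaker peaks of their list. The deposited score, the caller's measure of how far a peak stands above the control, ran from 71.82 to 2205 with a median of 164.9 (161.2 to 167.8, quartiles 136.3 and 205.8). Far sites had a median of 178.4 (176.5 to 181.0), and peaks only with GATA1 that overlapped Pol II had 186.2 (181.9 to 189.6). Shared peaks off Pol II had 205.9 (198.2 to 217.8) and shared peaks at Pol II 269.5 (262.6 to 276.1). The difference between near and far sites was -13.5 (-18.05 to -10.04) and that between near sites and sites at Pol II was -21.2 (-26.3 to -16.1). The classes overlapped widely all the same, since the quartiles of far sites were 147.1 and 222.6.

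**Figure D2:**
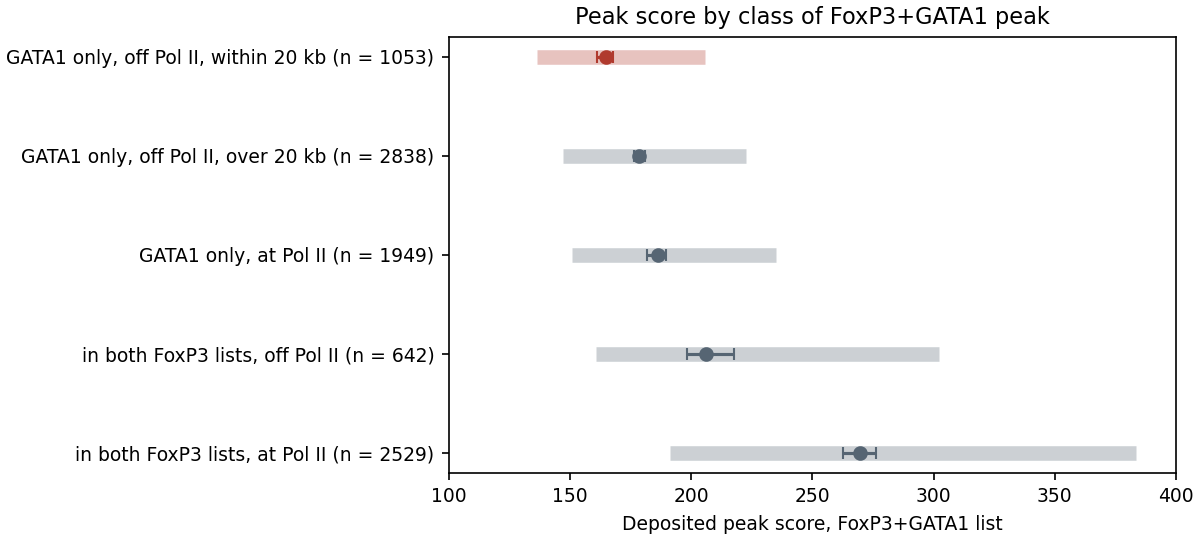
Deposited peak score (horizontal axis, no unit) of the FoxP3+GATA1 peaks in 5 classes, with the median as a point, its 95% interval as a whisker and the quartiles as a wide band. The near sites, in red, have the lowest median, 164.9, and their band overlaps those of the other classes.

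A lower score beside Pol II was not limited to sites only with GATA1. In the FoxP3 alone list, off-Pol II sites of that list only had a median of 355.4 (347.4 to 364.6) within 20 kb of Pol II and 374.8 (367.2 to 383.9) farther away, a difference of -19.4 (-31.5 to -7.45). Shared off-Pol II sites had 188.1 (179.1 to 206.3) and 214.7 (203.3 to 226.6), a difference of -26.6 (-41.5 to -5.06) within the FoxP3+GATA1 list. Scores of the FoxP3 lists are not on one scale, so only the direction within each is set side by side. For the near sites the difference was -4.42 (-10.93 to 3.002) when the list was reduced to its 5069 highest-scoring peaks, an interval that includes 0.

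By rank, near sites filled the bottom of the list more than the top. They made up 22.1% (19.5 to 24.9) of the peaks in the lowest score decile, 14.1% (11.98 to 16.52) in the fifth and 3.77% (2.71 to 5.23) in the highest. Far sites also thinned out towards the top, from 36.8% (33.7 to 40.0) in the lowest decile to 11.2% (9.31 to 13.4) in the highest. Among off-Pol II sites only with GATA1, near sites were 37.5% in the lowest decile, 18.3% in the second highest and 25.2% in the highest, the last from 34 near and 101 far sites.

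**Figure D3:**
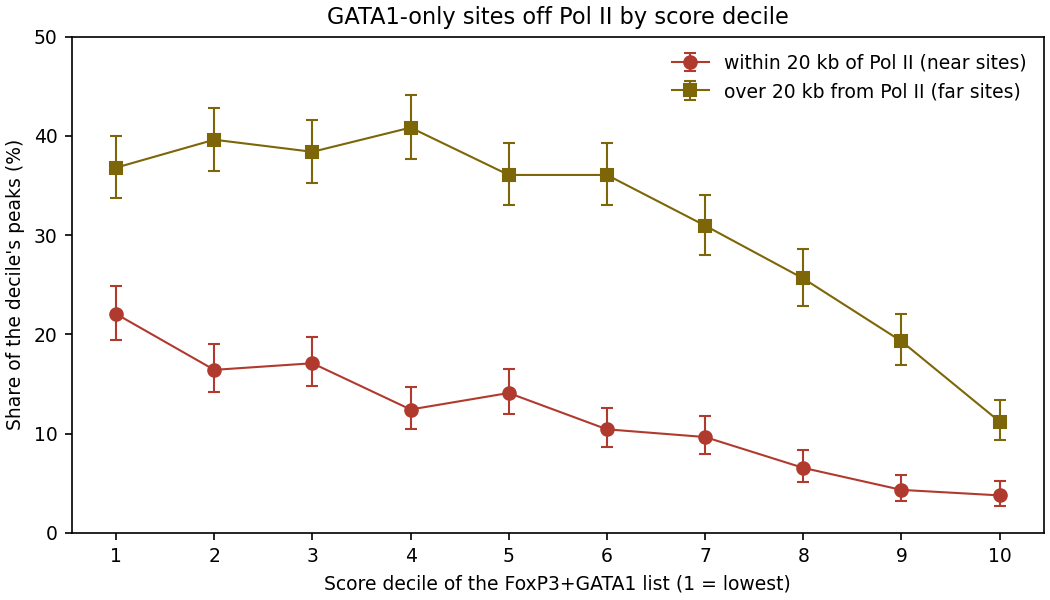
Share of the peaks in each score decile of the FoxP3+GATA1 list (%, vertical axis; decile 1 holds the lowest scores) that were near sites or far sites, with Wilson 95% intervals as bars. Near sites go from 22.1% in the lowest decile to 3.77% in the highest, and far sites are more numerous in every decile.

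Score varied little with distance among the near sites. The median was 155.8 (150.4 to 164.9) for the 80 within 1 kb of Pol II, 158.6 (141.1 to 172.0) from 1 to 2 kb and 165.3 (156.2 to 177.5) from 2 to 5 kb. It was 166.4 (159.6 to 174.0), 166.4 (159.1 to 178.2) and 167.4 (157.4 to 182.6) in the rings from 5, 10 and 15 kb. The intervals of all 6 rings overlapped.

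Near and far sites had similar median widths, while narrow peaks were fewer among near sites. The median width of near sites was 581 bp (577 to 585, quartiles 534 and 647), against 577 bp (574 to 580) for far sites, a difference of 4 bp (-1 to 9). Peaks only with GATA1 at Pol II had a median of 588 bp (585 to 591), a difference of -7 bp (-12 to -2). Widths of near sites ran from 238 to 1203 bp, and 86 of them, or 8.17% (6.66 to 9.98), were 450 bp or narrower, against 11.4% (10.3 to 12.6) of far sites and 10.8% (9.47 to 12.2) of peaks only with GATA1 at Pol II. The widest was the 1203 bp peak at 3426421 to 3427623 on chromosome 12 (score 300.2), 10736 bp from Pol II. Peaks of 1171 bp lay at 87861243 to 87862413 on chromosome 11, among the closest to Pol II given above, and at 100520596 to 100521766 on chromosome 6. A 1109 bp peak lay at 27268494 to 27269602 on chromosome 8 (score 295.0), 9688 bp from Pol II.

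The strongest near site lay on chromosome 7 at 4706791 to 4707847. It was 1057 bp wide, scored 2205 and ranked 40 in its list. Its nearest Pol II peak, 14698 bp away, scored 540.2 and overlapped peaks of both FoxP3 lists. The site at 51945394 to 51946057 on chromosome 2 (score 1161, rank 89) lay 16069 bp from a Pol II peak that overlapped a FoxP3+GATA1 peak only. The site at 100520596 to 100521766 on chromosome 6 (score 1126, rank 93) lay 8692 bp from a Pol II peak shared with both FoxP3 lists. These leading sites were therefore 8 kb or more from Pol II.

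The other 7 of the 10 strongest lay 1141 to 10422 bp from Pol II. The site at 58592167 to 58593085 on chromosome 4 (score 973.9) was 1141 bp from a Pol II peak that held no FoxP3 peak, and that at 73609700 to 73610121 on chromosome 2 (score 864.3) was 2697 bp from one that held both. On chromosome 14 the site at 8639188 to 8639882 (score 718.2) was 10422 bp from Pol II. On chromosome 15 the site at 12561572 to 12562266 (score 677.9) was 3063 bp away. The others were 81317347 to 81317820 on chromosome 1 (score 662.3, 8674 bp away), 119955050 to 119955289 on chromosome X (score 657.3, 2876 bp away) and 82975101 to 82976138 on chromosome 6 (score 647.5, 6853 bp away). In 5 of the 10 the nearest Pol II peak overlapped peaks of both FoxP3 lists. Among all near sites this held for 169, or 16.0% (14.0 to 18.4), and the 10 were named by their rank in score.

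The Pol II peaks beside near sites had scores and widths close to those of the whole Pol II list. The 1053 near sites had 1023 different nearest Pol II peaks: 28 of these served 2 near sites and 1 served 3. Their median score was 112.9 (109.0 to 118.7), against 117.6 (116.6 to 118.6) for all Pol II peaks, and their median width was 602 bp (597 to 616), against 608 bp (605 to 611). Of these Pol II peaks 99, or 9.68% (8.01 to 11.6), scored below the lowest score of the FoxP3+GATA1 list, against 8.18% (7.79 to 8.60) of all Pol II peaks. The nearest Pol II peak lay at lower coordinates for 511 near sites, or 48.5% (45.5 to 51.5), an interval that includes 50%. Direction of transcription was not analysed here.

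FoxP3 was found on the neighbouring Pol II peak about as often as on any Pol II peak. For 339 near sites, or 32.2% (29.4 to 35.1), the nearest Pol II peak overlapped a FoxP3 peak of either list, against 30.5% of all Pol II peaks (29.9 to 31.2), a difference of 1.65 points (-1.19 to 4.61). Far sites had a larger share, 40.2% (38.4 to 42.0), and the difference from them was -7.98 points (-11.3 to -4.58). For 714 near sites, or 67.8% (64.9 to 70.6), the neighbouring Pol II peak held no FoxP3 peak. The median score of near sites was 162.9 (158.2 to 167.2) beside a Pol II peak without FoxP3 and 174.6 (163.0 to 187.0) beside one in both FoxP3 lists. It was 165.0 (155.3 to 176.8) for the 119 beside one with a FoxP3+GATA1 peak only. For the 51 beside one with a FoxP3 alone peak only, it was 166.3 (149.2 to 177.6). All of these intervals overlapped.

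The 5 strongest Pol II peaks that were nearest to a near site all overlapped peaks of both FoxP3 lists, as did 14.4% (13.9 to 15.0) of all Pol II peaks. These 5 were picked for their Pol II score, and the share among equally strong Pol II peaks was not computed. The strongest, at 173411246 to 173412234 on chromosome 1 with a Pol II score of 2476, lay 16966 bp from the near site at 173393866 to 173394279 (FoxP3 score 335.3). Another strong one, at 173419312 to 173420089 on the same chromosome (Pol II score 1409), lay 1820 bp from the near site at 173417152 to 173417491 (FoxP3 score 286.2). On chromosome 11, the Pol II peak at 5910892 to 5911681 (score 2216) was 463 bp from the near site at 5909865 to 5910428 (FoxP3 score 261.9). The remaining Pol II peaks, at 105207969 to 105208774 (score 922.6) and 123575801 to 123576657 (score 749.4) on chromosome 7, stood beside near sites with FoxP3 scores of 108.8 and 183.4. Strong Pol II neighbours were thus seen with both weaker and stronger near sites.

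Near sites had more Pol II peaks around them than far sites had. Within 100 kb on either side they had a median of 3 Pol II peaks (quartiles 2 and 5), the same as peaks only with GATA1 at Pol II, while far sites had 1 (quartiles 0 and 2). A Pol II peak within 20 kb on both sides was found for 167 near sites, or 15.9% (13.8 to 18.2). Over the whole FoxP3+GATA1 list this share was 5.97%, and among peaks only with GATA1 at Pol II it was 9.03% (7.84 to 10.4). The rule asks for a Pol II peak within 20 kb of a near site, without overlap, and bars any there for far sites. The counts within 100 kb include that stretch, so both the counts and the shares follow in part from the rule. They describe the setting and carry no test.

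FoxP3 alone peaks were often close by without overlapping. Of the near sites 312, or 29.6% (26.9 to 32.5), had one within 20 kb, against 11.4% of all 5840 FoxP3+GATA1 peaks that overlap no FoxP3 alone peak, 13.9% (12.4 to 15.5) of peaks only with GATA1 at Pol II and 2.96% (2.40 to 3.65) of far sites. The neighbour was mostly at Pol II itself: 265 near sites had a FoxP3 alone peak within 20 kb that overlapped a Pol II peak, and 61, or 5.79% (4.54 to 7.37), had one off Pol II. For far sites the share with an off-Pol II neighbour was 2.92% (2.37 to 3.61), and only 1 far site had a FoxP3 alone neighbour at Pol II. The rule places Pol II within 20 kb of every near site and of no far site. The shares with a FoxP3 alone neighbour therefore follow in part from the rule and carry no test. Near misses between the FoxP3 lists were few. A FoxP3 alone peak lay within 500 bp of 6 near sites and within 1 kb of 17, or 1.61% (1.01 to 2.57).

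Near sites with and without a FoxP3 alone neighbour had similar values, with overlapping intervals. The 312 with one had a median score of 167.4 (161.5 to 175.2) and the 741 without had 163.5 (158.7 to 167.3). Median widths were 580.5 and 581 bp. Median gaps to Pol II were 7793 bp (6894 to 9009) and 8732 bp (8252 to 9479).

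Other FoxP3 peaks of the same list were also close. Of the near sites 414, or 39.3% (36.4 to 42.3), had another FoxP3+GATA1 peak within 20 kb, against 18.5% of the whole list and 7.72% (6.79 to 8.76) of far sites. Again most of these neighbours sat at Pol II: 340 near sites, or 32.3% (29.5 to 35.2), had a FoxP3+GATA1 peak at Pol II within 20 kb. Another off-Pol II site only with GATA1 was within 20 kb of 91 near sites, or 8.64% (7.09 to 10.5), and of 6.59% (5.73 to 7.56) of far sites. These intervals overlapped, which does not show that the shares were equal. No interval of their difference was computed. Near sites were therefore mostly single, beside a FoxP3 peak at Pol II where they had company. A Pol II peak was required within 20 kb of near sites and barred there for far sites, so the difference in neighbours at Pol II follows in part from the rule.

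Joined across gaps of up to 20 kb, 982 near sites stood alone, 29 groups held 2, and there was 1 group each of 3, 4 and 6. The group of 6 covered 48.2 kb at 126086195 to 126134377 on chromosome 8. Its near sites had scores of 99.42, 96.94, 81.13, 72.60, 79.07 and 103.3 in order along the chromosome, all in the lowest decile of the list. The Pol II peaks among them were also weak, with scores of 66.33, 50.25 and 85.90, and the last of these, at 126118202 to 126118958, was the one nearest to 3 near sites. Another 2 FoxP3+GATA1 peaks in this stretch, with scores of 83.32 and 97.43, overlapped FoxP3 alone peaks. The first near site of the group lay 1020 bp from a peak of the FoxP3 alone list, where that peak scored 255.4, and the second lay 1004 bp from one that scored 225.7. Inside the stretch there were 2 FoxP3 alone peaks, both overlapping a FoxP3+GATA1 peak, and none lay among the last 4 near sites.

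The group of 4, at 80789013 to 80828080 on chromosome 10, had near sites with scores of 173.2, 141.5, 119.7 and 136.2, each 3061 to 6265 bp from Pol II. Between them lay 3 FoxP3+GATA1 peaks with scores of 170.0, 234.6 and 168.0, each of which overlapped a Pol II peak. Those Pol II peaks scored 67.73, 270.5 and 112.3, and a Pol II peak with a score of 109.0 in the same stretch held no FoxP3 peak. Near sites and peaks at Pol II were thus interspersed over 39.1 kb.

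**Figure D4:**
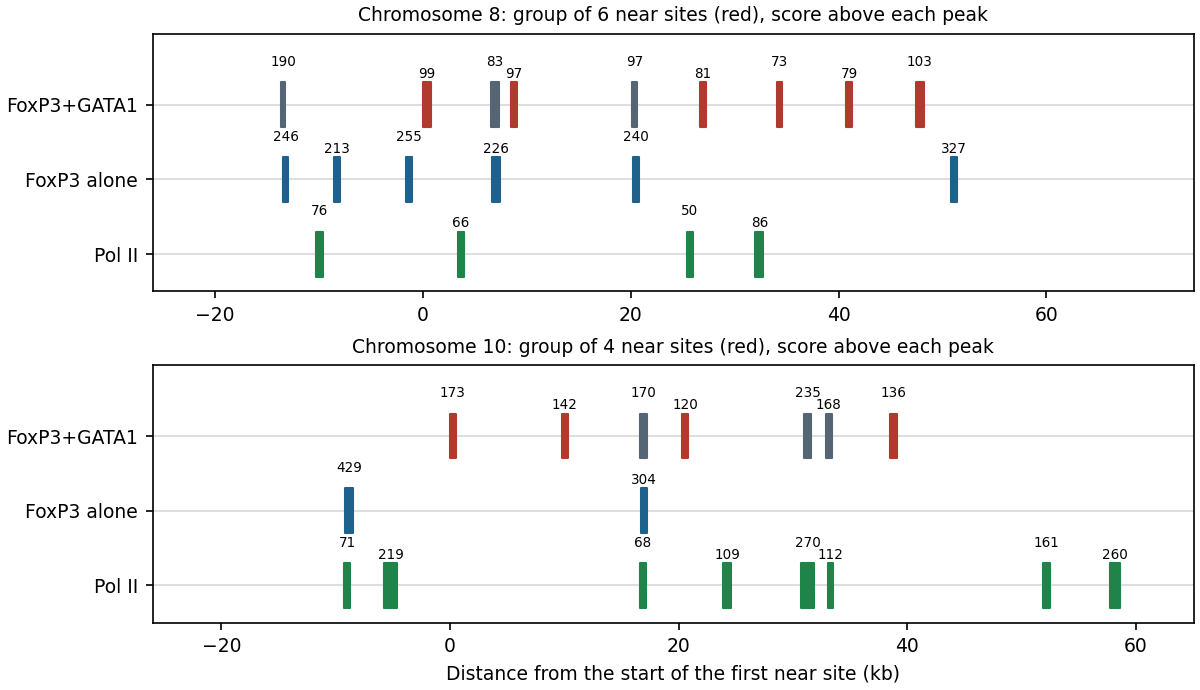
Peaks of the 3 lists (rows) in the groups of 6 and of 4 near sites on chromosomes 8 and 10, drawn to scale by distance from the start of the first near site (kb, horizontal axis), with the deposited score above each peak. Near sites, in red, are interspersed with Pol II peaks in green, and on chromosome 8 all near sites score between 72.60 and 103.3.

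The group of 3, at 111698657 to 111716259 on chromosome 12, had scores of 177.4, 142.0 and 114.0. It held no peak of any other kind, and its nearest Pol II peaks were 12992 to 13980 bp away. The first 2 of its near sites lay only 35 bp apart and were counted as separate peaks. Of the 29 groups of 2, which tie in size, the first in order of chromosome and start lay on chromosome 1. They were at 57270700 to 57291724 (scores 167.0 and 167.1) and at 122012535 to 122027496 (scores 125.2 and 162.7), each with Pol II between its members. Between the members of the first pair the FoxP3 alone list also had a peak, which scored 473.5, and the second had none.

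By chromosome, near sites were compared per Mb of sequence within 20 kb of, but outside, Pol II peaks, which came to 508.7 Mb in all and held 2.07 near sites per Mb (1.95 to 2.20). Chromosome 17 had the highest density, 3.16 per Mb (2.466 to 3.998, 70 near sites), followed by chromosome 8 with 2.78 (2.18 to 3.49) and chromosome 2 with 2.53 (2.05 to 3.08). The lowest densities were 0.894 per Mb (0.429 to 1.64, 10 near sites) on chromosome X and 1.22 (0.753 to 1.86) on chromosome 16. Far sites were also sparsest on these chromosomes, with 0.476 per Mb (0.372 to 0.599) on X and 1.19 (0.957 to 1.46) on 16. No near site was on chromosome Y, which had 0.0920 Mb of such sequence. The intervals of chromosomes 17, 16 and X did not contain the value over all chromosomes, nor did those of chromosomes 8 and 13 (1.39 per Mb, 0.946 to 1.98), among 21 chromosomes looked at.

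Chromosome 17, the highest for near sites, was within the range of the other autosomes for far sites. It held 6.65% (5.30 to 8.32) of near sites, 3.07% of far sites, 4.82% of Pol II peaks and 4.23% of all FoxP3+GATA1 peaks. Far sites numbered 1.25 per Mb (1.00 to 1.55) there in the sequence beyond 20 kb from Pol II. Its near sites were concentrated between 25 and 30 Mb, with 13, and between 45 and 50 Mb, with 12, in windows of 5 Mb whose median over windows with a near site was 2. Those windows held 125 and 67 Pol II peaks. Windows on chromosome 11 at 95 to 100 Mb and 115 to 120 Mb also held 13 near sites each, with 125 and 146 Pol II peaks. The windows and chromosomes were singled out after their values were seen, and no test was made of them.

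**Figure D5:**
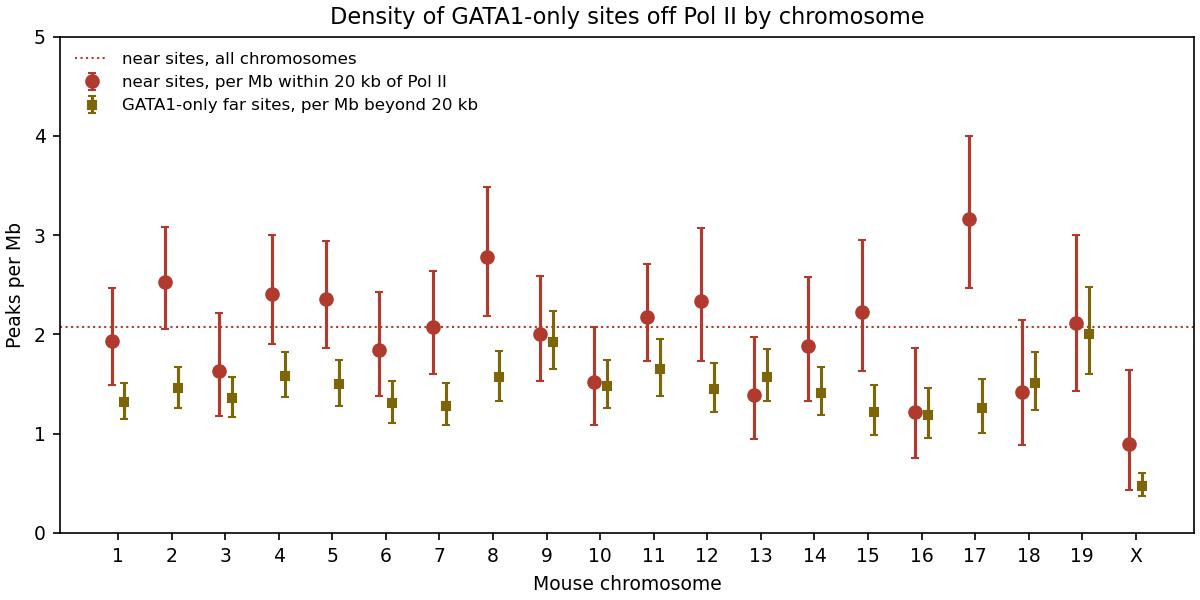
Near sites per Mb of sequence within 20 kb of Pol II (red points) and far sites per Mb beyond 20 kb (brown squares) on each mouse chromosome except Y, with 95% Poisson intervals as bars. The dotted line is the density of near sites over all chromosomes, 2.07 per Mb; chromosome 17 reaches 3.16 and chromosome X 0.894.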

How the data were processed

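The tools named per the submitters' processing notes are FastQC, Bowtie and MACS 1.4.0rc2, and the named build is mm8. Their roles, settings and the score threshold used are not stated in those notes. For every ChIP library the authors deposited 1 peak list with a score per peak, read here in the caller's usual form as 10 times the negative log10 of a p-value; the score is the authors' and was used only within a list. By the naming of the lists, each was called over the same extract lane. Depth is unknown.

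Which build the positions follow is unsure, because a peak on chromosome 7 ended at 152430305, past the end generally known for mm8. Positions are the files' own, with 1 added to starts. No genome of the build of these lists was used, so genes and sequence motifs, planned for the case that one was given, were not analysed here.

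Overlap meant 1 shared bp or more. Classes, gaps and ring densities were computed with numpy 2.4.6, scipy 1.17.1 and pandas 2.3.3 under Python 3.11.15. bedtools 2.31.1 gave the same 1053 sites and equal gaps for 3891 of 3891 off-Pol II sites. On simulated data, 100% of 9011 planted classes were recovered. Shares carry Wilson intervals, medians order-statistic intervals, densities exact Poisson intervals, ratios of densities exact binomial ones, and differences intervals combined from those of both values (MOVER).

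The named regions are the 10 highest-scoring near sites, the 5 closest to Pol II, the 3 on each side of the limit, the 5 widest, the Pol II peaks nearest to most near sites, the 5 largest groups and the 5 strongest neighbouring Pol II peaks, with ties ordered by chromosome and start. The sites, measures and rules were chosen with earlier results of these data known.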

Additional observations from a re-analysis of the deposited data

How the results depend on the processing

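No paired analysis was possible because the groups had no replicates (1 library each). The setting at equal list length, the difference in near share and the alternatives for the score difference were added after seeing the data. With a limit of 10 kb there were 611 near sites, with a median gap of 4326 bp and 22.7% flanked by Pol II on both sides; with 50 kb there were 1868, with 16650.5 bp, 8.94% flanked, 18.3% near a FoxP3 alone peak and 25.7% near another FoxP3+GATA1 peak. With a gap of at least 1 kb to both lists the median gap was 9195 bp. At scores of 100 or more in all lists the median score was 169.3, the gap 9308 bp, and the share with FoxP3 on the nearest Pol II peak 38.4%; 11.3% were flanked, 35.3% had a FoxP3 alone peak and 45.3% another FoxP3+GATA1 peak nearby, and the score difference from far sites was -7.835. With the FoxP3+GATA1 list at scores of 150 or more there were 671 near sites, with a median score of 191.2, 32.0% near another peak of the list and a score difference of -8.58. With Pol II peaks limited to the lowest FoxP3+GATA1 score, 13.7% were flanked. Without peaks of 450 bp or less the median width was 586 bp, 28.2% had FoxP3 on the nearest Pol II peak, 23.6% a FoxP3 alone peak nearby and 35.7% another FoxP3+GATA1 peak. At equal list length there were 388 near sites, with a median score of 222.9, 28.9% with FoxP3 on the nearest Pol II peak, 25% near another peak of the list and 0.777 per Mb from 2 to 20 kb; the score difference was -4.42 and the difference in near share -11.6 points. Limits, score cuts and shorter lists change which peaks count by construction. Beyond that the cause was not tested. The shares over whole lists were not recomputed in these settings. The shares given here therefore cannot be set against the whole-list shares of the main setting. The score difference and the difference in near share kept their sign in all 12 settings run. Unknown depth limits all counts.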
